A study of Mus musculus with 15 samples.

Results

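The genes described here encode receptors for steroid, thyroid and peptide hormones that act on the mammary gland, namely Esr1, Pgr, Prlr, Ghr, Nr3c1, Vdr, Thrb and Oxtr. These 8 genes were chosen by name, and each was followed through every array probe set that the annotation assigned to that gene alone. Of the 8, 7 had such a probe set and 6 were bright enough to be tested among 12143 genes, out of 18193 genes with a probe set of their own. Prlr, the prolactin receptor gene, had none and was not analysed here. Transcript levels were measured on 15 Affymetrix whole-genome arrays, 3 for each of 5 cell populations sorted from the mammary glands of adult female C57BL/6 mice. The basal fraction, in which stem cells are enriched (MaSC, CD24+ CD29hi and free of blood and endothelial lineage markers), luminal progenitors (LP, CD61+) and mature luminal cells (ML, CD61-) came from wild-type virgins. Alveolar luminal cells (AL) were the yellow fluorescent cells of Wap-Cre;R26Y mice at midgestation, and their counterparts named as alveolar progenitors (ALP) were the fluorescent cells of virgin Wap-Cre;R26Y mice. In these mice Cre is driven by the promoter of a milk protein gene, whey acidic protein, and switches on a fluorescent reporter for good, so the mark follows a cell and its descendants rather than its present state. AL and ALP carry the transgene and the reporter, whereas the other 3 populations do not. Pregnancy separates AL from the 4 virgin populations, so in a difference that involves AL, cell type and pregnancy cannot be told apart.

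Hormones reach the mammary epithelium through 2 kinds of receptor. ESR1, PGR, NR3C1, VDR and THRB are nuclear receptors, transcription factors that bind estrogen, progesterone, glucocorticoids, vitamin D and thyroid hormone. PRLR and GHR are cytokine receptors of the cell surface that signal through JAK2 and STAT5, and OXTR couples to G proteins and makes myoepithelial cells contract when milk is let down. In the mouse gland, estrogen and progesterone receptor proteins are known from a subset of luminal cells, which pass the signal to their neighbours through secreted factors such as amphiregulin, WNT4 and RANKL.

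The sequences upstream of Esr1 and Vdr are shown because these genes lay at opposite ends in ML, Esr1 being highest there and Vdr lowest. Each is the stretch of 250 bases just before the start of the gene in RefSeq (mouse build GRCm38.p6), on the gene's own strand, with capitals for GGGCGG or its reverse complement, the core of the GC box that binds SP1.
Esr1, chr10:4611739-4611988, plus strand: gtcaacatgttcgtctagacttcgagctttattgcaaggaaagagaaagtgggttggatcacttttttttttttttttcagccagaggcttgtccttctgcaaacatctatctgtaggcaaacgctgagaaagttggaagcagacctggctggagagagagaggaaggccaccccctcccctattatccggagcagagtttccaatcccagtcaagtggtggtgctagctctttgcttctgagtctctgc
Vdr, chr15:97908297-97908546, minus strand: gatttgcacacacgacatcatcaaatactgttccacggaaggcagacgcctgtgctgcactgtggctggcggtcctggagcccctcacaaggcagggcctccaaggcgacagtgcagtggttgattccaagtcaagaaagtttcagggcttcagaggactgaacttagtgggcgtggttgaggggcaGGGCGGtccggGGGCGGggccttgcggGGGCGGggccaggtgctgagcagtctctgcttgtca
The Vdr stretch held 3 matches to GGGCGG and the Esr1 stretch none, and 32.7% of 32851 promoters of this length held at least 1 on either strand. GC content was 61.2% for Vdr and 47.6% for Esr1, beside a median of 52.4% over all promoters. Neither stretch held AGGTCA, the core that many nuclear receptors bind (14% of promoters), TATAAA (12.4% of promoters), or GGTCA followed after 3 bases by TGACC, the paired arrangement that estrogen receptors bind (0.0639% of promoters). These are matches of letters and say nothing of binding. A second Esr1 promoter, which lies inside the annotated gene and is not printed, had 59.6% GC and no match to any of these motifs. The Pgr stretch, of a gene also highest in ML, lies inside its annotated gene too and is not printed. It held 1 match to GGGCGG and 1 to TATAAA, at 43.6% GC. No stretch of Nr3c1, also lowest in ML, was looked at.

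Marker genes were read first, because they move with several of the receptor results. Arrays of 1 population correlated over genes with a Pearson r of at least 0.976 in LP, ML and AL, but down to 0.943 in MaSC and 0.901 in ALP. All 12 basal markers on the list were measured, and their mean log2 intensity lay at 12.72 to 12.90 in MaSC, 9.66 to 9.98 in AL, 9.12 to 11.30 in ALP, 7.68 to 7.80 in LP and 6.80 to 7.66 in ML. The mean of the 15 fibroblast markers was 10.93 to 11.58 in LP, 11.18 to 12.86 in ALP, 10.13 to 10.65 in AL, 8.57 to 9.08 in MaSC and 4.99 to 5.57 in ML, so ML stood far below the others. The third ALP array stood apart, with a mean of 12.98 for the 9 leukocyte markers measured of 15 (8.13 and 8.46 in the other ALP arrays) and of 11.52 for the 10 endothelial markers measured of 13 (8.53 and 9.42). Within MaSC the mean of the 12 luminal markers was 12.54, 12.15 and 11.76 in replicates 1, 2 and 3. The milk protein gene Csn2 read 14252 to 15065 in AL and 97.1 to 1198 in ALP.

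Intensities are linear values normalised by the authors, and they can be compared between arrays for 1 probe set but not between probe sets. Each gene was read from its brightest probe set, by mean log2 intensity over the 15 arrays, and a fold is the antilog of the difference between mean log2 intensities. Where a list gene or a further probe set lay below the array median on every array of its dimmer population, the fold is given as a lower bound ("at least"), with the dim arrays set to their array medians, beside the adjusted p of the unbounded values. Whether a sorted population held fewer cells with a transcript or less of it per cell cannot be told apart from bulk RNA. All 6 tested receptor genes differed among the 5 populations (moderated F test of limma, adjusted p from 2.37e-05 for Pgr to 0.0309 for Ghr), where 84.7% of all tested genes did so. The F test of Ghr did not pass without ML replicate 2 or 3 or any 1 of the AL arrays, which left 5 genes. In the 10 pairwise comparisons, 34 of 60 differences passed at an adjusted p under 0.05, and 26 of these 34 passed again when each array was left out in turn. Comparisons that name the same population share its 3 arrays.

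**Figure D1:**
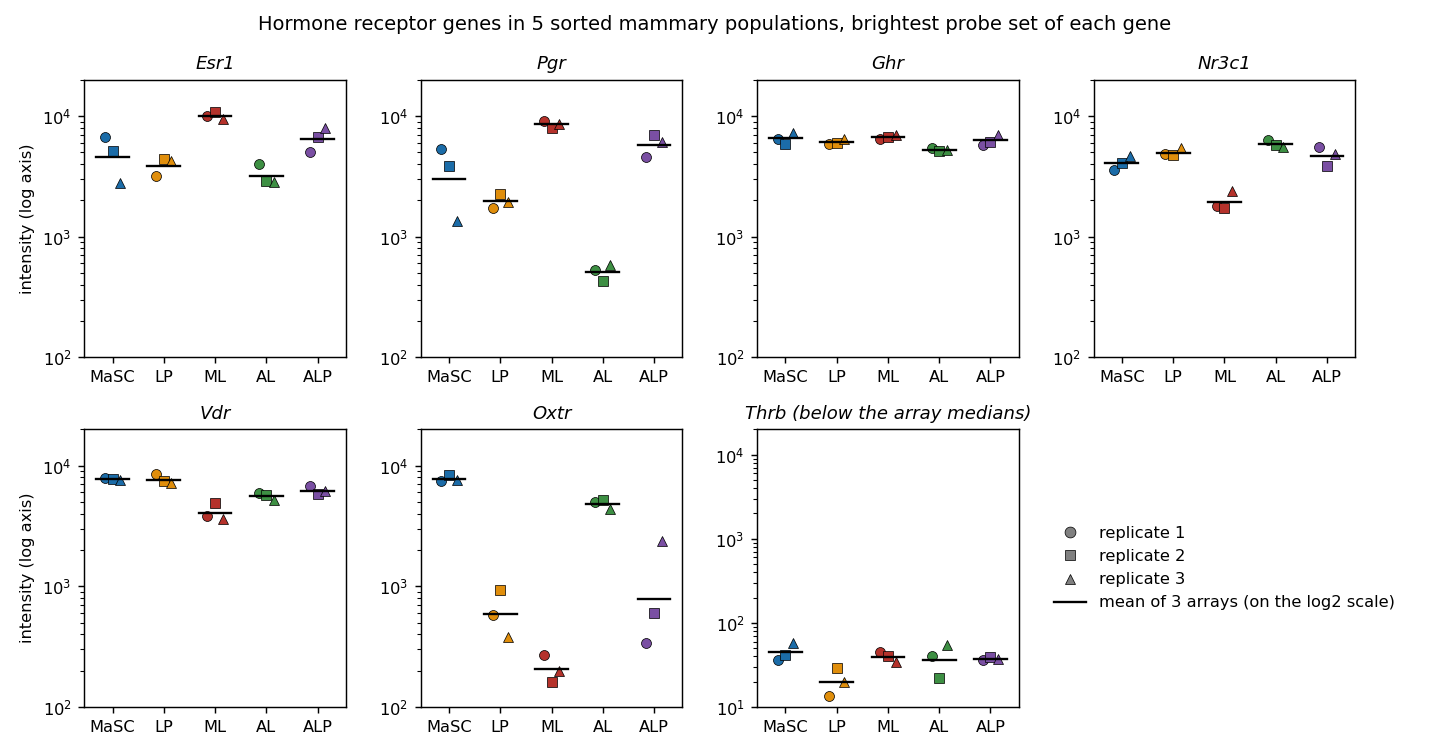
Intensity (log axis) of each receptor gene's brightest probe set in the 5 populations, with 1 symbol per array and a line at the mean of 3 arrays on the log2 scale. Esr1 and Pgr were highest in ML, Nr3c1 and Vdr lowest in ML, Oxtr highest in MaSC and AL, Ghr between 5099.5 and 7273 on all arrays, and Thrb at most 57.9 throughout.

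Esr1, the gene of estrogen receptor alpha, read 9915, 10900 and 9517 in the 3 ML arrays (mean ± SD 10111 ± 712, n = 3). It read 5033, 6649.6 and 7894 in ALP and 6683, 5090.2 and 2779 in MaSC. It read 3161, 4389 and 4201 in LP and 4017, 2898 and 2839 in AL. Every ML array lay above every array of the other populations, whereas MaSC, LP and AL overlapped. Esr1 was lower than in ML by 3.15-fold in AL (log2 difference -1.65 ± 0.28 SE, adjusted p = 0.000455), by 2.60-fold in LP (adjusted p = 0.00207) and by 2.22-fold in MaSC (adjusted p = 0.00449). Without MaSC replicate 3 the last of these was 1.73-fold (adjusted p = 0.0128). ALP against ML gave a log2 difference of -0.65 (95% confidence interval -1.27 to -0.03) that did not pass (adjusted p = 0.0903), although the 6 arrays did not overlap. It passed with median centring (-1.07, adjusted p = 0.00252), with array weights (adjusted p = 0.0216) and without MaSC replicate 3 (adjusted p = 0.0248), within a range of 0.00252 to 0.274 over all alternatives. AL was 2.00-fold below ALP (adjusted p = 0.0153), a call that was lost without AL replicate 2 or AL replicate 3 (adjusted p = 0.0536 and 0.0559, within a range of 0.000122 to 0.0559 over all alternatives). In the order ML, ALP, MaSC, LP, AL no neighbouring pair passed the test with all arrays and the main scaling.

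Pgr, the progesterone receptor gene and a known target of ESR1, had the widest range among the nuclear receptor genes. It read 9109, 7953 and 8667 in ML and 4535, 6951 and 6116 in ALP. In MaSC it read 5376, 3853 and 1343, in LP 1739, 2249 and 1952, and in AL only 529, 427 and 584. All AL arrays lay below all others, and all ML arrays above all others. AL was 16.8-fold below ML (log2 difference -4.07 ± 0.39 SE, adjusted p = 5.90e-06), 11.4-fold below ALP (adjusted p = 4.38e-05), 5.95-fold below MaSC (adjusted p = 0.000163) and 3.87-fold below LP (adjusted p = 0.00177). LP was 4.35-fold below ML (adjusted p = 0.000984) and MaSC 2.83-fold below ML (adjusted p = 0.00572, but 0.0502 in a fit of those 2 populations alone, within a range of 0.000887 to 0.0502 over all alternatives). Pgr was also 2.93-fold higher in ALP than in LP (adjusted p = 0.0351), but this call was lost in 7 of the 15 fits that left out an array. Of the neighbours in the order ML, ALP, MaSC, LP, AL, those that differed beyond their spread were LP and AL.

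The MaSC arrays spread widely for both sex steroid receptors, from 2779 to 6683 for Esr1 and from 1343 to 5376 for Pgr. Foxa1, which encodes a factor that opens chromatin for ESR1, moved with them at 4731, 3211 and 981 in replicates 1, 2 and 3, as did the mean of the luminal markers given above. Their part in the MaSC values was not tested. With MaSC replicate 3 left out, Pgr was higher in MaSC than in LP (log2 difference 1.21, adjusted p = 0.00166), whereas with all arrays it was not called (0.62, adjusted p = 0.225, range over all alternatives 0.00166 to 0.674). Leaving out that array also moved Pgr in MaSC against ML to 1.88-fold and in AL against MaSC to 8.94-fold, both still passing (adjusted p = 0.00421 and 2.10e-06), and brought Esr1 in AL against MaSC past the threshold (log2 difference -0.86, adjusted p = 0.0078).

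The dimmer passing Esr1 probe set read 4382 to 4954 in ML and 629.64 to 947 in AL, a 5.95-fold difference (adjusted p = 0.000732). The 2 dim Pgr probe sets placed AL at least 4.97-fold and at least 5.62-fold below ML (adjusted p = 0.00011 and 5.26e-05). The brighter of them did not separate AL from MaSC (adjusted p = 0.0697), and neither separated AL from LP (adjusted p = 0.476 and 0.0524), and their AL intensities of 9.32 to 42.95 lay below the array medians of 137 to 209.9. Over the 15 arrays the log2 intensities of Esr1 and Pgr had a Pearson r of 0.89, a description of 5 populations in triplicate. The genes most like Pgr by this measure were Cd200 (r = 0.99), Tspan13 (r = 0.99) and Gipc2 (r = 0.99), and those most like Esr1 were Pllp, Rasgrf1 and Cutal (r = 0.97 each). Gipc2, for example, had mean intensities of 6566 in ML, 2891 in ALP, 1486 in MaSC, 847 in LP and 99.6 in AL.

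**Figure D2:**
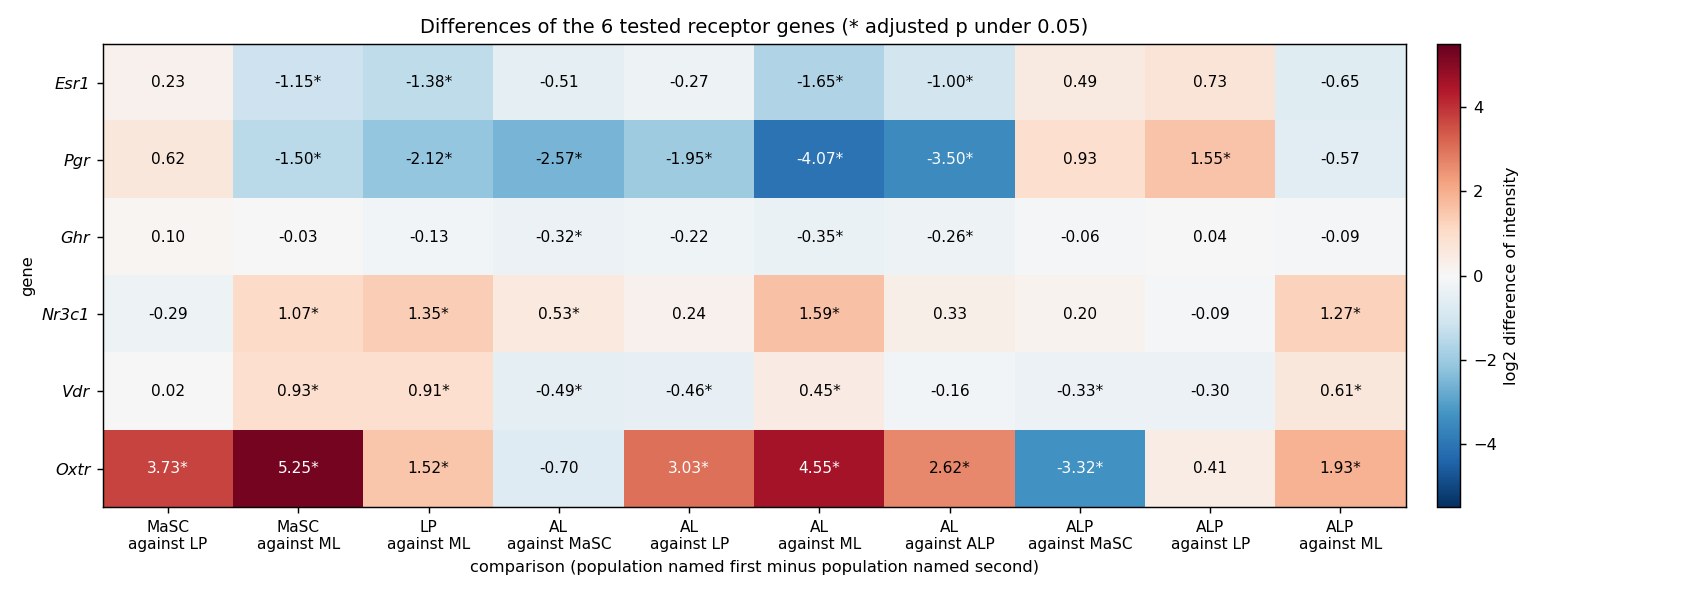
Log2 difference of intensity of the 6 tested receptor genes (rows) in the 10 pairwise comparisons (columns), first population minus second, with an asterisk where the adjusted p was under 0.05. Blue marks lower and red higher values in the population named first: Pgr was -4.07 and Esr1 -1.65 in AL against ML, where Nr3c1 was 1.59 and Oxtr 4.55.

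Genes that respond to estrogen or progesterone moved in both directions. Of the 15 measured, 7 were lower and 2 higher in LP than in ML, where 21.7% of all tested genes were lower and 27.3% higher, and the median log2 difference of the list was 0.09 beside 0.04 over all genes. Wnt4, a progesterone target that signals to neighbouring cells, was 10.5-fold lower in LP (adjusted p = 3.40e-05), and Stc2, which encodes stanniocalcin 2, was 3.63-fold lower (adjusted p = 5.86e-05). Igfbp4, encoding an IGF binding protein, was at least 8.17-fold higher in LP (adjusted p = 2.25e-05). All 15 fibroblast markers were higher in LP than in ML too, and their part in Igfbp4 was not tested. In AL against ML, 7 were lower and 4 higher (24.8% and 28.7% of all genes). Stc2 was 9.94-fold lower in AL (adjusted p = 4.66e-07), and Igfbp4 was at least 6.08-fold higher (adjusted p = 1.81e-05). Tnfsf11, the gene of RANKL, was at least 6.74-fold higher in AL (adjusted p = 4.55e-05), with mean intensities of 941 in AL and 73.6 in ML. Its means were 30.4 in MaSC and 18.7 in LP, so Tnfsf11 was highest where Pgr was lowest.

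Among 17 measured cofactors and chaperones of steroid receptors, 6 were higher and 4 lower in AL than in ML (28.7% and 24.8% of all tested genes). In LP against ML 6 were higher and 3 lower (27.3% and 21.7%), so both counts were near the background, and the balance turned to 3 higher and 5 lower, and to 1 higher and 7 lower, when each array was centred on its median. Foxa1 was 6.59-fold lower in AL (adjusted p = 0.000223), whereas Fkbp4, which encodes a co-chaperone of steroid receptors, was 2.36-fold higher (adjusted p = 6.71e-06). Tfap2c, the gene of transcription factor AP-2 gamma, was higher than in ML in AL (1.90-fold, adjusted p = 0.000293) and in LP (2.25-fold, adjusted p = 9.64e-05). Cited1, a coactivator gene, read 280, 1062 and 2547 in LP, and it was 6.80-fold below its ML level (adjusted p = 0.00615), a value that became 3.77-fold when LP replicate 1 was left out and 11.4-fold when LP replicate 3 was (adjusted p = 0.0186 and 0.0015).

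Oxtr, the oxytocin receptor gene, had the widest range of all the receptor genes tested. It read 7505, 8393 and 7638 in MaSC and 5034, 5149.5 and 4367 in AL. It read 577, 935 and 382 in LP, 272, 161 and 199 in ML and 336, 601 and 2398 in ALP. MaSC and AL lay above every array of LP, ML and ALP, and MaSC above AL. MaSC exceeded ML 38.1-fold (log2 difference 5.25 ± 0.56 SE, adjusted p = 1.81e-05), LP 13.3-fold (adjusted p = 0.000371) and ALP 9.97-fold (adjusted p = 0.000998). AL exceeded ML 23.5-fold (adjusted p = 3.79e-05), LP 8.19-fold (adjusted p = 0.0011) and ALP 6.16-fold (adjusted p = 0.00324). AL against MaSC gave a log2 difference of -0.70 (95% confidence interval -1.91 to 0.52) that did not pass (adjusted p = 0.301). In a fit of those 2 populations alone it passed (adjusted p = 0.00294, range over all alternatives 0.00294 to 0.442).

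The 3 ALP arrays did not agree on Oxtr, since the third read 2398 and the others 336 and 601. On the same arrays the mean of the basal markers was 11.30, against 9.26 and 9.12, and Acta2, the smooth muscle actin gene of myoepithelial cells, read 12157, against 3931 and 3306. Leukocyte and endothelial markers were high on that array too, as given above. Their part in the ALP values of Oxtr was not tested. Without ALP replicate 3 the excess over ALP grew to 10.8-fold for AL (adjusted p = 4.41e-05) and 17.4-fold for MaSC (adjusted p = 1.21e-05), and ALP stood 2.18-fold above ML instead of 3.82-fold (adjusted p = 0.0236 and 0.0184). The latter call was lost without ML replicate 2 (adjusted p = 0.0662, range over all alternatives 0.00349 to 0.507). Without ALP replicate 1, ALP stood 5.83-fold above ML, and 6.53-fold below MaSC and 4.03-fold below AL. LP exceeded ML 2.87-fold (adjusted p = 0.0399), a call lost in 9 of the 15 fits that left out an array.

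In AL, Oxtr also stood beside basal genes. All 12 basal markers were measured, 9 of them were higher in AL than in ML and none lower (28.7% and 24.8% of all tested genes), and Krt5 and Krt14, the keratins of the basal layer, read 749 to 1093 and 3232 to 4365 in AL. In MaSC the same genes read 8894 to 9884 and 13007 to 13476. In ALP, 11 of the 12 basal markers were higher than in ML and none lower (21.1% and 15.6% of all tested genes). In AL against ALP none was higher and 2 were lower (18.7% and 21.2%), with a median log2 difference of 0.20 beside -0.02 over all genes. The mean of the basal markers was 9.66 to 9.98 in the AL arrays, and 9.26, 9.12 and 11.30 in ALP replicates 1, 2 and 3. Oxtr was 6.16-fold higher in AL than in ALP. The part of the basal genes in the AL values of Oxtr was not tested. The second Oxtr probe set was dim but ranked the populations alike, at 377 to 459 in MaSC, 161 to 273 in AL and no more than 62.3 elsewhere, and it placed AL at least 1.24-fold above LP (adjusted p = 0.0139) but did not separate LP or ALP from ML (adjusted p = 0.57 and 0.507). The genes most like Oxtr over the 15 arrays were Hunk (r = 0.98), Boc (r = 0.98) and Ctnnal1 (r = 0.96). Hunk, which encodes a protein kinase, had means of 1820.2 in MaSC, 1207 in AL, 183 in ALP, 60.7 in LP and 25.2 in ML.

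**Figure D3:**
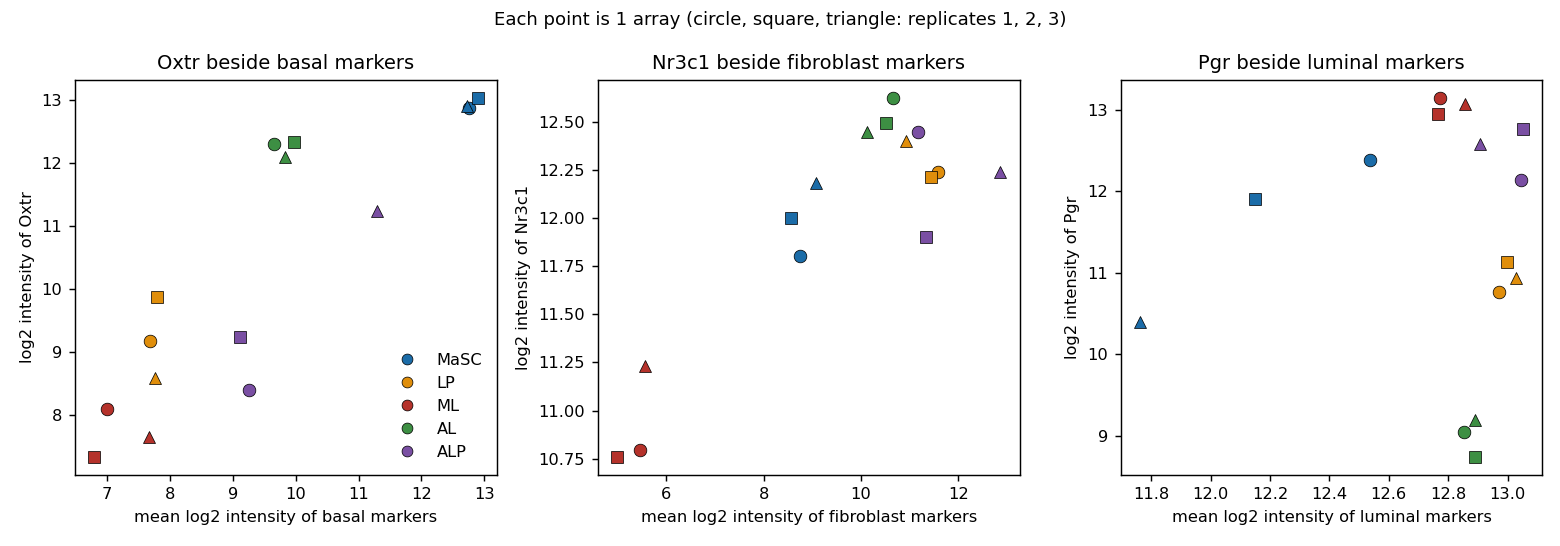
Log2 intensity of Oxtr, Nr3c1 and Pgr (vertical axes) on each of the 15 arrays beside the mean log2 intensity of the basal, fibroblast and luminal marker lists (horizontal axes), coloured by population. The third ALP array lies at 11.30 for basal markers and above the other ALP arrays for Oxtr, the 3 ML arrays lie lowest for fibroblast markers and Nr3c1, and the third MaSC array lies lowest for luminal markers.

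The genes through which oxytocin acts, from the G protein subunit gene Gnaq to the contractile genes of smooth muscle, were counted next. Acta2, Mylk, Cnn1 and Myh11 stand on this list and also on the list of basal markers, so the lists are not separate evidence. Of 15 measured, 9 were higher and 1 lower in MaSC than in LP (15.8% and 23.1% of all tested genes), with a median log2 difference of 2.07 beside -0.07 over all genes. Myh11, a smooth muscle myosin gene, was at least 38.7-fold higher (adjusted p = 2.78e-05), Mylk, the myosin light chain kinase gene, 86.2-fold (adjusted p = 4.23e-06) and Acta2 35.2-fold (adjusted p = 9.13e-06). In AL against MaSC, 12 of the 15 were lower and 1 was higher (28.1% and 31.3% of all genes). In AL against ML, 7 were higher and 4 lower (28.7% and 24.8% of all genes). Those higher were led by Acta2 (24.4-fold, adjusted p = 3.22e-06), Mylk (22.7-fold, adjusted p = 7.74e-06) and Tagln, the transgelin gene (11.5-fold, adjusted p = 1.32e-05). In ALP against LP, 6 were higher and none lower (3.58% and 3.95% of all genes), led by Mylk at 25.3-fold (adjusted p = 0.000544), or 16.8-fold without ALP replicate 3 (adjusted p = 0.000182), while Oxtr itself gave a log2 difference of 0.41 (95% confidence interval -0.81 to 1.63) that did not pass (adjusted p = 0.684) and was -0.39 without ALP replicate 3.

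Nr3c1, the glucocorticoid receptor gene, ran against Esr1. It read 1778, 1734 and 2403 in ML, where every other population lay higher on every array. It read 6314, 5764 and 5583 in AL and 4830.2, 4749 and 5395 in LP. It read 5577, 3827 and 4834 in ALP and 3576, 4091 and 4639.9 in MaSC. The excess over ML was 3.02-fold in AL (log2 difference 1.59 ± 0.16 SE, adjusted p = 8.42e-06), 2.56-fold in LP (adjusted p = 5.88e-05), 2.41-fold in ALP (adjusted p = 0.000118) and 2.09-fold in MaSC (adjusted p = 0.000195). Among the other populations AL exceeded MaSC 1.44-fold (adjusted p = 0.0136), which was lost without MaSC replicate 1 (adjusted p = 0.0531, range over all alternatives 0.00519 to 0.478). In the order AL, LP, ALP, MaSC, ML, only MaSC and ML differed beyond their spread among neighbours. The 4 other passing probe sets also placed AL and LP above ML, with adjusted p of at most 0.017. By the brighter 2 of these probe sets the excess was 2.78- and 3.07-fold in AL, and 3.03- and 3.00-fold in LP. The dimmest 2 read 47.6 to 398, near or below the array medians in ML, so no fold is given for them. Of those 2, 1 did not separate MaSC or ALP from ML (adjusted p = 0.793 and 0.162).

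The fibroblast markers were lowest in ML too. Of 15 measured, all 15 were higher in LP than in ML (27.3% of all tested genes) and all 15 in ALP (21.1%). The count was 14 in AL (28.7%) and 12 in MaSC (27.1%). Col3a1, a fibrillar collagen gene, read 36 to 54.7 in ML and 5898 to 9313 in LP. The part of these markers in the low ML values of Nr3c1 and Vdr was not tested. Nr3c1 and Esr1 had a Pearson r of -0.82 over the 15 arrays. The genes most like Nr3c1 were Srgap3 (r = 0.98), Tank (r = 0.98) and Septin11 (r = 0.97), and Srgap3 had means of 1938 in AL, 1692 in LP, 1291 in ALP, 1118 in MaSC and 227 in ML.

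Genes that respond to glucocorticoids were counted next, and all 16 on the list were measured. In ALP against ML, 10 were higher and none lower (21.1% and 15.6% of all tested genes). In AL against ML 9 were higher and 1 lower (28.7% and 24.8%), and in LP against ML 8 and 1 (27.3% and 21.7%). The list medians were 0.53, 0.38 and 0.52 on the log2 scale, beside -0.02, 0.03 and 0.04 over all genes. With each array centred on its median the counts became 5 higher and 4 lower, 6 and 3, and 6 and 4, so most of this excess was lost under that scaling. Fkbp5, a classical glucocorticoid target that restrains the receptor, exceeded its ML level 3.74-fold in LP (adjusted p = 1.18e-05), and Cebpb, a transcription factor gene needed for alveolar growth, 2.14-fold (adjusted p = 1.69e-05). Hsd11b1, whose enzyme makes active glucocorticoid, was at least 13.4-fold higher in LP (adjusted p = 4.53e-05). The fibroblast markers given above were all higher in LP than in ML too, and their part in Hsd11b1 was not tested. In AL, Hsd11b2, whose enzyme inactivates glucocorticoid, was at least 4.61-fold higher than in ML (adjusted p = 2.26e-05), with means of 640.5 and 60.1. Zbtb16, a target gene encoding a zinc finger factor, ran the other way and was 9.64-fold below its ML level in AL (adjusted p = 7.27e-06).

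**Figure D4:**
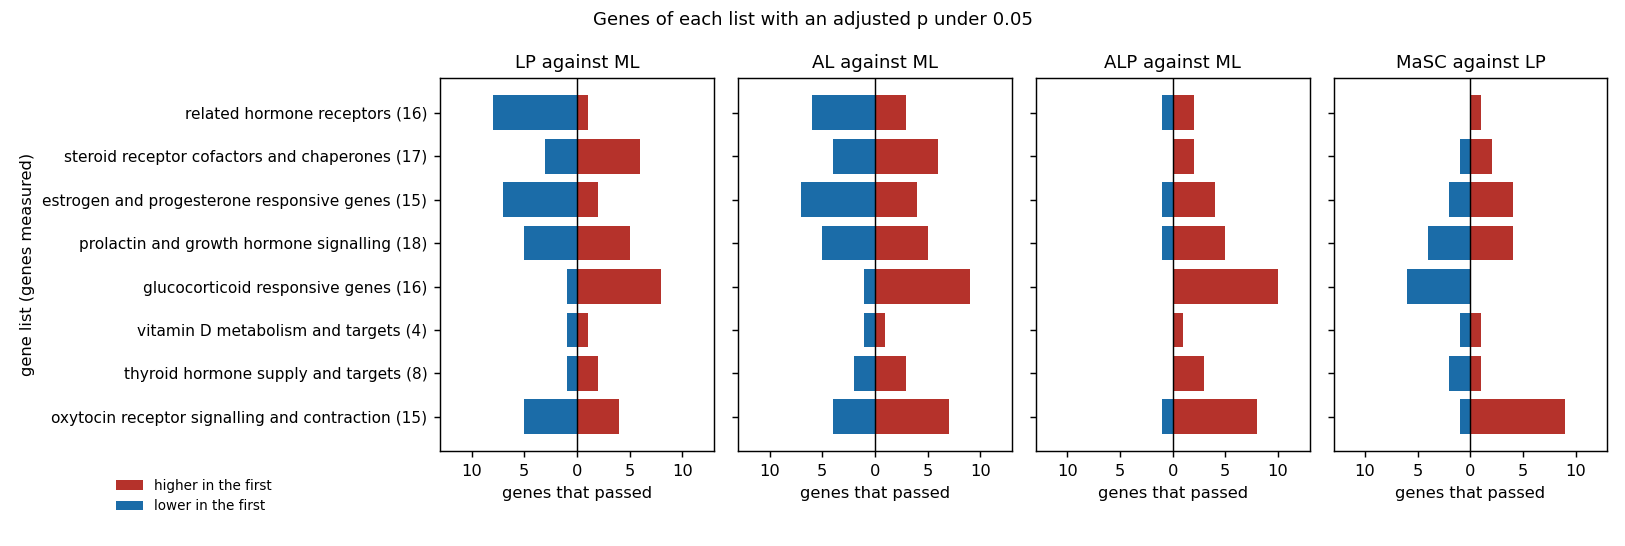
Number of genes with an adjusted p under 0.05 in each of 8 lists, higher (red, to the right) or lower (blue, to the left) in the population named first, for 4 comparisons. The number measured stands after each list name; glucocorticoid responsive genes were 8, 9 and 10 higher against ML in LP, AL and ALP, and genes of oxytocin signalling and contraction were 9 higher in MaSC than in LP.

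Vdr, the vitamin D receptor gene, was also lowest in ML, with a narrower range. It read 3849, 4940.4 and 3596 in ML. The MaSC arrays read 7938, 7805 and 7680.4 and the LP arrays 8481, 7406 and 7221. The ALP arrays read 6748, 5794 and 6169 and the AL arrays 5895, 5668 and 5190.1. ML lay below all others without overlap, and AL below MaSC and LP. The excess over ML was 1.91-fold in MaSC (log2 difference 0.93 ± 0.12 SE, adjusted p = 5.98e-05), 1.88-fold in LP (adjusted p = 0.000103), 1.52-fold in ALP (adjusted p = 0.00213) and 1.36-fold in AL (adjusted p = 0.00702). AL was 1.40-fold below MaSC (adjusted p = 0.00389) and 1.38-fold below LP (adjusted p = 0.00749), the latter lost with each array centred on its median (log2 difference -0.36, adjusted p = 0.0732, range over all alternatives 0.000293 to 0.0732). MaSC and LP differed by a log2 value of 0.02 (95% confidence interval -0.23 to 0.28). ALP was 1.25-fold below MaSC (adjusted p = 0.0454), a call lost in 11 of the 15 fits that left out an array. Centring each array on its median, which shifts all genes of ALP against ML by -0.41 and of AL against ML by -0.14, left log2 differences of 0.19 and 0.31 for Vdr there that no longer passed (adjusted p = 0.273 and 0.107, ranges over all alternatives 0.000281 to 0.273 and 0.000792 to 0.107). The second Vdr probe set gave larger folds in the same order, 3.00-fold in MaSC over ML (adjusted p = 9.47e-06) and 1.77-fold in AL over ML (adjusted p = 0.000792). The genes most like Vdr were Emd, Cplane1 and Ubtf (r = 0.95 each).

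Only 4 of 11 listed genes of vitamin D metabolism and response were measured. Cyp24a1, whose enzyme degrades active vitamin D and which is induced through VDR, read 2107 on average in AL, 1774 in ALP and 842 in LP, but 58.8 in ML and 65.2 in MaSC. It was higher in AL than in ML by at least 15.2-fold (adjusted p = 1.21e-05) and higher in LP than in ML by at least 5.93-fold (adjusted p = 0.000199), and LP exceeded MaSC at least 5.04-fold (adjusted p = 0.000358). In AL against ML, 14 of 15 fibroblast and 3 of 4 adipocyte markers measured were higher too and none lower (28.7% and 24.8% of all tested genes). All 15 fibroblast markers were higher in LP than in ML (27.3% of all tested genes). The part of these markers in Cyp24a1 was not tested. S100g, encoding a calcium binding protein, was at least 6.27-fold below ML in AL (adjusted p = 7.92e-05). Trpv6, a calcium channel gene, was at least 2.73-fold higher in MaSC than in LP (adjusted p = 0.000177). The 2 passing genes in AL against ML thus split into 1 higher and 1 lower.

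Ghr, the growth hormone receptor gene, hardly varied by its brightest probe set. The MaSC arrays read 6478, 5919 and 7273, the LP arrays 5832, 6032 and 6451, and the ML arrays 6416, 6667 and 6969. It read 5782, 6121 and 6999.6 in ALP and 5457, 5099.5 and 5193 in AL. AL lay below all other arrays, by 1.27-fold against ML (log2 difference -0.35 ± 0.10 SE, adjusted p = 0.00883), 1.25-fold against MaSC (adjusted p = 0.0132) and 1.20-fold against ALP (adjusted p = 0.0477). The call against MaSC was lost without MaSC replicate 3 (adjusted p = 0.0514, range over all alternatives 0.000493 to 0.271), and that against ALP in 12 of the 15 fits that left out an array. Among the 4 virgin populations no difference passed, and LP minus ML was -0.13 on the log2 scale (95% confidence interval -0.34 to 0.08). With each array centred on its median, however, the same probe set was lower than in ML in LP (-0.37, adjusted p = 0.0131, range over all alternatives 0.00038 to 0.84) and in ALP (-0.50, adjusted p = 0.0019, range 0.000843 to 0.86).

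The next Ghr probe set ranked the populations differently. It read 1107, 1453 and 1524 in ML and 1589.5, 1317 and 1770.5 in MaSC. It read 2468, 2716 and 2867 in AL, 2572, 2442 and 2446 in LP and 2698, 2291 and 2228 in ALP, above every ML and MaSC array. By this probe set AL was 1.99-fold above ML (log2 difference 0.99, adjusted p = 0.000109), LP 1.84-fold above ML (adjusted p = 0.00038) and ALP 1.78-fold above ML (adjusted p = 0.000843), and MaSC was 1.61-fold below LP (adjusted p = 0.00248). The dimmest probe set read 94.8 to 179 on all arrays and separated no populations. A direction for Ghr between AL and ML therefore depends on the probe set, and which transcripts each one reads was not tested. The mean of the fibroblast markers, given above, was also higher in AL, LP and ALP than in MaSC and ML. Their part in the values of the next Ghr probe set was not tested. The genes most like the brightest Ghr probe set were Rcan1 (r = 0.93), Pcnx (r = 0.92) and Rtn2 (r = 0.91).

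**Figure D5:**
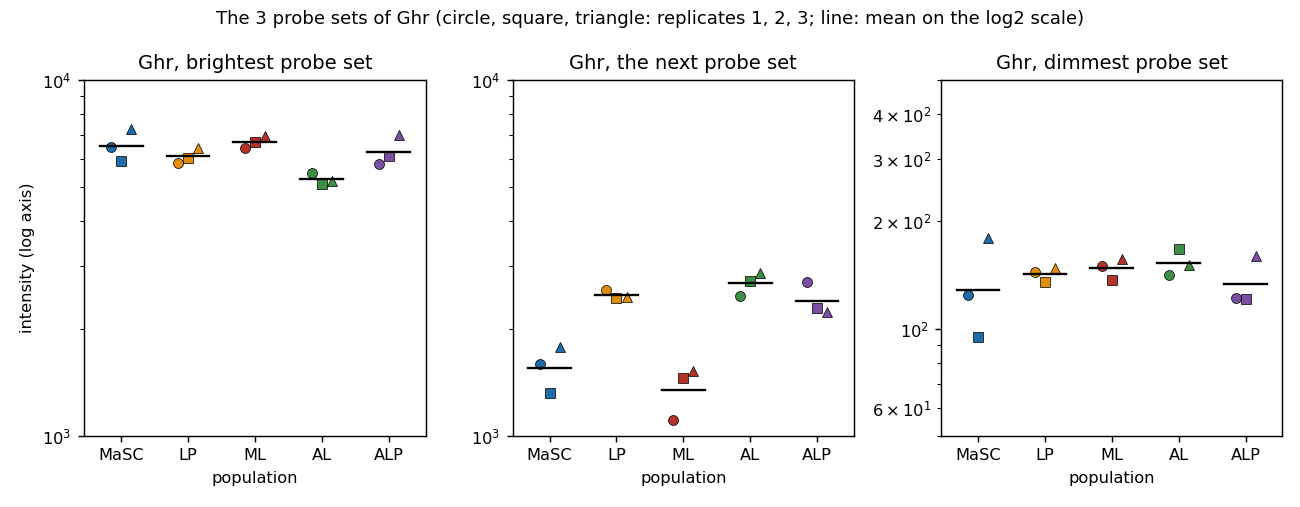
Intensity (log axes, the third panel on a lower range) of the 3 probe sets of Ghr in the 5 populations, with 1 symbol per array and a line at the mean on the log2 scale. The brightest places AL lowest, at 5099.5 to 5457, whereas the next places ML and MaSC lowest, at 1107 to 1770.5, and the dimmest stays between 94.8 and 179.

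Genes that act downstream of the growth hormone and prolactin receptors moved in both directions. Of 18 measured, 5 were higher and 5 lower in AL than in ML (28.7% and 24.8% of all tested genes). In AL against LP 4 were higher and 4 lower (21.3% and 24.2%), so the counts of both comparisons were near the background. In AL against ALP, 6 were lower and none higher (21.2% and 18.7% of all tested genes), whereas 2 were lower and 5 higher when each array was centred on its median. Ptpn1, the gene of a phosphatase that can act on JAK2, was 4.71-fold below its ML level in AL (adjusted p = 4.40e-07). Irs2, an insulin receptor substrate gene, was 5.18-fold higher (adjusted p = 3.10e-06) and Igf1, a growth factor gene induced by growth hormone, at least 9.12-fold higher (adjusted p = 1.39e-05). Socs3, a feedback inhibitor of cytokine receptors, was 3.65-fold lower in AL than in ALP (adjusted p = 0.00011). Stat5a, which carries the prolactin signal to the nucleus, was 1.69-fold below its ML level in LP (adjusted p = 0.000411) and 1.58-fold higher in AL than in LP (adjusted p = 0.00108). Elf5, an alveolar transcription factor gene that responds to prolactin, was 23.2-fold higher in AL than in MaSC (adjusted p = 2.38e-05). Elf5 read 1325, 330.3 and 184 in MaSC, and the fold became 40.6 without MaSC replicate 1 and 15.1 without MaSC replicate 3 (adjusted p = 3.06e-07 and 4.96e-05). The 4 adipocyte markers measured of 11 averaged 11.12 to 11.35 on the log2 scale in AL and 7.15 to 7.83 in ML. Of 15 fibroblast markers, 14 were higher in AL than in ML and none lower (28.7% and 24.8% of all tested genes). The part of the adipocyte and fibroblast markers in Igf1 and in Thrsp was not tested.

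Thrb, the gene of thyroid hormone receptor beta, was near the background of the arrays. Its only probe set lay below the array median on all 15 arrays, at 13.3 to 28.8 in LP, 22.4 to 55.1 in AL, 34.7 to 44.5 in ML, 35.8 to 38.9 in ALP and 36.6 to 57.9 in MaSC, so it was not tested. Thra, the gene of the alpha receptor, was bright enough and was 2.24-fold below its ML level in AL (adjusted p = 3.72e-05), 2.15-fold below ALP (adjusted p = 0.000128) and 1.78-fold below LP (adjusted p = 0.00068). Of 8 measured genes of thyroid hormone supply and response, 3 were higher and 2 lower in AL than in ML (28.7% and 24.8% of all tested genes). Thrsp, a thyroid hormone target linked to fat synthesis, was at least 49.4-fold higher in AL (adjusted p = 3.10e-06) and Crym, which encodes a protein that binds thyroid hormone in the cell, at least 11.7-fold lower (adjusted p = 0.000212). Dio2, whose enzyme makes the active hormone, was at least 9.58-fold above its ML level in LP (adjusted p = 4.55e-05), and Hr, a thyroid hormone responsive corepressor gene, 3.89-fold higher (adjusted p = 1.95e-06). The part of the fibroblast markers, all higher in LP than in ML, was not tested for Dio2.

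Of 27 related hormone receptor genes, 16 were measured. In MaSC against ML, 11 were lower and 2 higher (32.4% and 27.1% of all tested genes). In LP against ML 8 were lower and 1 was higher (21.7% and 27.3%), or 13 and 1 with each array centred on its median. Igf1r, the IGF1 receptor gene, was the 1 that was higher in LP, with means of 2878 and 542.3 and a log2 difference of 2.46 (adjusted p = 4.11e-05), while Esrrb and Esrra, genes of estrogen-related receptors, were at least 2.94-fold and at least 1.14-fold lower (adjusted p = 0.00107 and 0.00248). In AL against ML, 6 were lower and 3 higher (24.8% and 28.7% of all tested genes). Nr3c2, the mineralocorticoid receptor gene, was 3.54-fold lower in AL (adjusted p = 0.000291), and Pgrmc1, which encodes a membrane protein linked to progesterone, 1.40-fold lower (adjusted p = 0.000133). In ALP against LP both genes that passed were higher in ALP (3.58% of all tested genes were), Lepr, the leptin receptor gene, by 13.1-fold (adjusted p = 0.0257) and Avpr1a, a vasopressin receptor gene, by at least 3.59-fold (adjusted p = 0.0148). Lepr did not pass without LP replicate 1 or 2 or ALP replicate 2 or 3 (adjusted p of 0.069 to 0.0894), and Avpr1a not without LP replicate 2 or 3 (adjusted p = 0.0533 and 0.0523). Lepr was 20.2-fold higher with LP replicate 3 left out, and the unbounded fold of Avpr1a, 9.38, became 4.94 with ALP replicate 3 left out and 16.5 with ALP replicate 2 left out. In the same comparison 9 of 10 endothelial and 3 of 4 adipocyte markers measured were higher in ALP, and their part in both was not tested.

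Counted by comparison, the most receptor genes passed in AL, MaSC and LP against ML, where 49% to 59.5% of all tested genes passed too. In AL against ML all 6 passed, 3 higher and 3 lower, where 53.5% of all tested genes passed. In MaSC against ML 5 passed (59.5% of all genes), in LP against ML 5 (49% of all genes) and in ALP against ML 3 (36.7% of all genes). In AL against MaSC 4 passed (59.4% of all genes), in AL against ALP 4 (39.9%) and in AL against LP 3 (45.5%). In ALP against MaSC 2 passed (38.4% of all genes), in MaSC against LP 1, Oxtr (38.9%), and in ALP against LP 1, Pgr (7.54%). The median absolute log2 difference of the 6 genes was 1.62 in AL against ML, beside 0.48 over all genes, and 0.26 in MaSC against LP, beside 0.37. By gene, Oxtr passed in 8 of 10 comparisons, Pgr and Vdr in 7 each, Nr3c1 in 5, Esr1 in 4 and Ghr in 3. The residual SD between arrays of a population was 0.74 for Oxtr, 0.51 for Pgr and 0.37 for Esr1 on the log2 scale, above the median of 0.23 over all genes, and 0.20 for Nr3c1, 0.14 for Vdr and 0.10 for Ghr, below it. A given fold was therefore harder to call for the first 3 genes than for the last 3.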

How the data were processed

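RNA of 5 sorted mouse mammary populations, 3 samples each, was amplified (NuGEN Ovation V2) and hybridised to Affymetrix Mouse Genome 430 2.0 arrays. The deposited values are linear intensities that the authors normalised in dChip, for which version, model and baseline array were not stated in the sources at hand. The series table holds 45101 probe sets, of which 34945 carried 1 gene symbol, 932 several and 9160 none, beside 64 controls. Array medians were 136.8 to 209.9, and the number of arrays limits the precision. Intensities under 1 were set to 1 and log2 transformed. Probe sets above the array median on at least 3 arrays were kept, and the brightest per gene was used, which left 12143 genes.

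One mean per population was fitted to all 15 arrays with limma 3.58.1 in R 4.3.3, for 10 pairwise comparisons and a moderated F test, with Benjamini-Hochberg adjustment over all genes of a comparison and a threshold of 0.05. The steps were tested on simulated data. The labels do not say whether the 3 samples of a population are separate animals, so p-values measure the spread between samples, which may be technical. The ALP samples carry later numbers, so any batch confined to them cannot be told apart from the population. Genes named from a list were those with the largest moderated t in the comparison, with others named for their role after their values were seen, and the 3 likest genes were those of highest Pearson r. The receptor genes and lists were chosen with earlier results of these data known. Alternatives were an added 16, quantile normalisation, median centring, no filter, the mean of probe sets, other probe sets, a fit of 2 populations, array weights, a trended and robust fit, a replicate block and leaving out each array. Promoters came from RefSeq (GRCm38.p6).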

Additional observations from a re-analysis of the deposited data

How the results depend on the processing

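Of 60 differences, 34 passed and 17 of these passed under every alternative, while 9 of the 26 others passed under none. The number of receptor genes that passed became 5 for ALP against ML with median centring. It became 1 for ALP against MaSC and 0 for ALP against LP without the filter, in a fit of only the populations compared, and with the replicate block over 15 arrays. It became 2 for MaSC against LP with the mean of probe sets and with array weights, which also gave 5 for AL against LP and 3 for ALP against LP. Leaving out 1 array gave 5 to 6 genes in the F test, 2 to 4 for AL against ALP, 3 to 3 for AL against LP, 3 to 4 for AL against MaSC, 6 to 6 for AL against ML, 0 to 2 for ALP against LP, 1 to 3 for ALP against MaSC, 2 to 5 for ALP against ML, 4 to 5 for LP against ML, 1 to 2 for MaSC against LP and 5 to 5 for MaSC against ML. The cause was not tested. Replicate numbers were not used as pairs, since the labels do not say what they mark and deviations of same-numbered arrays correlated at -0.23 to 0.21; the block changed no other count of receptor genes by over 1.5 times.

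Directions turned for differences that were small or rested on Ghr. Median centring gave 0.014 (Ghr) and 0.11 (Vdr) for AL against ALP, and -0.13 for Ghr in ALP against LP. The mean of probe sets gave, for Ghr, -0.25 in MaSC against LP, 0.23 in LP against ML, 0.24 in AL against MaSC, 0.23 in AL against ML, 0.033 in AL against ALP, 0.21 in ALP against MaSC, -0.035 in ALP against LP and 0.20 in ALP against ML. The next Ghr probe set gave -0.68 in MaSC against LP, 0.20 in MaSC against ML, 0.88 in LP against ML, 0.79 in AL against MaSC, 0.11 in AL against LP, 0.99 in AL against ML, 0.16 in AL against ALP, 0.63 in ALP against MaSC, -0.053 in ALP against LP and 0.83 in ALP against ML. The dimmest gave -0.15 in MaSC against LP, 0.25 in AL against MaSC, 0.10 in AL against LP, 0.050 in AL against ML, 0.20 in AL against ALP, 0.057 in ALP against MaSC and -0.095 in ALP against LP. Array weights gave -0.014 for Nr3c1 in ALP against MaSC and -0.11 for Oxtr in ALP against LP, and another Nr3c1 probe set gave -0.12 in AL against LP. Leaving out 1 array gave ranges that cross 0 for Esr1 (-0.044 to 0.59) and Vdr (-0.022 to 0.094) in MaSC against LP, for Ghr in MaSC against ML (-0.11 to 0.039), ALP against MaSC (-0.14 to 0.020) and ALP against LP (-0.036 to 0.10), and for Nr3c1 (-0.21 to 0.059) and Oxtr (-0.39 to 1.02) in ALP against LP.

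Median centring lowered the share of higher values among all passing genes from 57.5% to 18.7% in ALP against ML, from 55.7% to 30.3% in LP against ML, from 45.6% to 27.9% in MaSC against ML, from 56.6% to 37.3% in ALP against MaSC, from 47.5% to 28.4% in ALP against LP and from 53.7% to 41.0% in AL against ML, and raised it from 46.9% to 73.9% in AL against ALP and from 46.9% to 60.1% in AL against LP. Of 3645 list counts under alternatives, 3301 lay within 1.5 times of the main count and 344 did not. The brightest Esr1 probe set is one that had been listed as an alternative.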
